A study of Mus musculus with 7 samples.

Results

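The genes described here encode voltage-gated and related ion channels. Members were all protein-coding genes in a RefSeq table of the mouse GRCm38.p6 assembly whose symbols begin with Kcn, Cacn, Scn and a digit, or Hcn and a digit. The rule gave 138 of 21883 protein-coding genes. Open chromatin was read out with ATAC-seq, which tags accessible DNA by transposition. Neural progenitors that carry CD15 (a surface carbohydrate) were purified by sorting from dorsal telencephalon. The embryos were of the CD-1 strain, at stage E14.5 by the sample titles, and gave 7 libraries in all. Of these, 4 libraries were L3mbtl3 -/- (KO) and 3 were wild-type (WT, called control in the design text). The labels give neither the construction of the null allele nor the number of embryos behind a library, and p-values therefore measure the spread between libraries.

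Ion channels of these families open a pore for potassium, sodium or calcium in response to membrane voltage, to intracellular ions or to binding partners. Pore subunits set the ion and the gating, and accessory subunits alter trafficking and kinetics. In the developing cortex, excitability builds up as progenitors give way to neurons. Many potassium and calcium channel genes also span large stretches of the genome, with long introns.

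The authors deposited a list of broad peaks for each library, with no read counts, so the sequencing depth is unknown. The KO lists held 9827, 7111, 3366 and 17362 peaks and the WT lists 7448, 11394 and 6458. KO library 4 and WT library 2 had the longest lists of their genotypes and the most members called. In bulk libraries, a site that is open in few cells and a site that is weakly open in many cannot be told apart. In at least 1 library, a peak lay at an end (1 kb on either side) of 5 of 11 dorsal progenitor markers, 1 of 2 intermediate progenitor, 3 of 7 excitatory neuron, 1 of 8 ventral telencephalon and interneuron, 0 of 3 endothelial, 0 of 3 microglial and blood and 1 of 3 meningeal markers, where 23.6% of all genes had one. In the gene or within 50 kb, the counts in the same order were 10, 1, 7, 4, 3, 2 and 1, where 69.2% of all genes had a peak.

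The annotated start of transcription with the most recurrent peak among the members lay inside Scn2a, which encodes a sodium channel pore subunit used at the axon initial segment of excitatory neurons. It was followed by the outer start of Kcnt2, a sodium-activated potassium channel gene. RefSeq promoter windows (GRCm38.p6, 250 bases before to 50 after a start) were available for 101 members, in 137 windows. The windows with a peak in at least 2 libraries are shown 5′ to 3′, with capitals for the bases inside the merged peak region. That region joins the peaks of the libraries, and their shared stretch can be shorter, as at Kcna4 (116 of 289 bp).
Scn2a internal start, chr2:65668436-65668735, plus strand: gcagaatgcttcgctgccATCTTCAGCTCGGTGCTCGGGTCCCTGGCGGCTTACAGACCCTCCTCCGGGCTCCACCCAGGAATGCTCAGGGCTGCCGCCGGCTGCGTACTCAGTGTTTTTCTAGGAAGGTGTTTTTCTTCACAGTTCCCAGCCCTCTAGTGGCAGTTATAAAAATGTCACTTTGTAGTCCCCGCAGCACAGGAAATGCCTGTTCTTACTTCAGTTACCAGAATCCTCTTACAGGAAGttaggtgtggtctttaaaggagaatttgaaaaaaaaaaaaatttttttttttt
Kcnt2 outer start, chr1:140245468-140245767, plus strand: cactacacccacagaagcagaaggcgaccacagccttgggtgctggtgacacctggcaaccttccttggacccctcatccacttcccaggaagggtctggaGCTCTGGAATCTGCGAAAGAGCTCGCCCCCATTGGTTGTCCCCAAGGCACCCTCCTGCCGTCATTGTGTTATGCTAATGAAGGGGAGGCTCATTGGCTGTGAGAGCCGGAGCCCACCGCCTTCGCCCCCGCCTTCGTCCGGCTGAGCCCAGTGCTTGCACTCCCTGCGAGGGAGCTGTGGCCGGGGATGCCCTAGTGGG
Cacnb2 internal start, chr2:14823842-14824141, plus strand: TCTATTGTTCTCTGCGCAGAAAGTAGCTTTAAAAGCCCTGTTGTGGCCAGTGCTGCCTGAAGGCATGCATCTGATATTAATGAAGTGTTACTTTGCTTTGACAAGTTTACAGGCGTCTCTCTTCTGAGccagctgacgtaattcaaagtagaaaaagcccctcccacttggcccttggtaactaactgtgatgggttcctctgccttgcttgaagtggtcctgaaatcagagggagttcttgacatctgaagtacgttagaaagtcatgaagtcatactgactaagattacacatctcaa
Kcna4 outer start, chr2:107290339-107290638, plus strand: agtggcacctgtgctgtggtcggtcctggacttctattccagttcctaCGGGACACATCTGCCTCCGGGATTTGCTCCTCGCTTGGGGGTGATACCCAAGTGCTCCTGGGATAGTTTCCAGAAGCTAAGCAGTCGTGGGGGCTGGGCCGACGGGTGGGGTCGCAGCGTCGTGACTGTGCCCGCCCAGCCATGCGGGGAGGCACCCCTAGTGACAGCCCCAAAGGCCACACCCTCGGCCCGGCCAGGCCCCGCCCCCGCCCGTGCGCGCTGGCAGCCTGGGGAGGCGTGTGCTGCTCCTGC
Kcnip3 outer start, chr2:127522045-127522344, minus strand: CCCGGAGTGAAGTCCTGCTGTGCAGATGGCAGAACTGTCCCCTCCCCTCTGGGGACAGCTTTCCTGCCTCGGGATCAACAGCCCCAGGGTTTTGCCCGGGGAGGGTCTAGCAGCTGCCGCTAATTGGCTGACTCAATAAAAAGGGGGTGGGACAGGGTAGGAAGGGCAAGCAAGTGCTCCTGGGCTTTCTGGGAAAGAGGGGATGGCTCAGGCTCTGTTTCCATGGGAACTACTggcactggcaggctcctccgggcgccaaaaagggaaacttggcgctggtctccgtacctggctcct
Kcnj2 outer start, chr11:111065914-111066213, plus strand: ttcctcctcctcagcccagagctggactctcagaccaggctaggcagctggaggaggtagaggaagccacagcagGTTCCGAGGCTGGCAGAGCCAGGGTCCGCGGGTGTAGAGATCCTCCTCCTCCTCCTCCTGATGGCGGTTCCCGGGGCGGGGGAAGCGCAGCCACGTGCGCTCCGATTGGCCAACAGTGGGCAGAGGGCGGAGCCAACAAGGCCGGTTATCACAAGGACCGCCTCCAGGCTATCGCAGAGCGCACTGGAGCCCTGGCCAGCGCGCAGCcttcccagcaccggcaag
Kcnn3 outer start, chr3:89519914-89520213, plus strand: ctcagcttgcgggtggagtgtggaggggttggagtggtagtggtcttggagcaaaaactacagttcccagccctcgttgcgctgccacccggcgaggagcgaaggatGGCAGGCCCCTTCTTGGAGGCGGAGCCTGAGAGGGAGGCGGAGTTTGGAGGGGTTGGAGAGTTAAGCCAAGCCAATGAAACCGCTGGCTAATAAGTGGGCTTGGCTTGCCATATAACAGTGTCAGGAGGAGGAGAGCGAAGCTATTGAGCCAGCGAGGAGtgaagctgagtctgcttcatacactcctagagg

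Peaks at the ends of ion channel genes were few. A gene was called at an end where a peak touched the 1 kb on either side of either end of its span. At least 1 library called 17 of the 138 members (12.3%), against 5167 of all 21883 protein-coding genes (23.6%). All 7 libraries called 0 members, against 248 of all genes (1.13%). The members called at an end numbered 4, 3, 0 and 10 in the KO libraries and 2, 8 and 3 in the WT libraries. KO libraries called 3.08% ± 3.04 of the members (SD, n = 4) and WT libraries 3.14% ± 2.33 (SD, n = 3), a difference of −0.060 percentage points that lay within the spread of either genotype. The same shares over all protein-coding genes were 9.11% ± 6.30 in KO and 8.39% ± 2.41 in WT libraries. In each of the 7 libraries the member share was lower than that of all genes, by a factor of 0 to 0.521. No test was made of the difference between the members and all genes, because genes of a list are not replicates.

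Pooled over gene lengths, ion channel genes held about as many peaks per megabase inside their spans and around them as all genes. A locus is the gene span with 50 kb on either side, and each of its peaks was placed at an end, inside the span or outside it. In KO libraries 3.18% ± 2.17 of member locus peaks were at an end, 52.7% ± 9.32 inside and 44.1% ± 10.1 outside (SD, n = 4). In WT libraries the shares were 4.24% ± 1.58, 54.9% ± 2.75 and 40.8% ± 2.62 (SD, n = 3). For all protein-coding loci, KO libraries had 17.0% at an end, 28.5% inside and 54.5% outside, and WT libraries 17.6%, 27.5% and 54.9%. Per megabase of interior span, members held 3.11 ± 1.42 peaks per library and all genes 3.13 ± 1.65 (SD, n = 7). Per megabase of flank the densities were 3.21 ± 2.17 for members and 2.99 ± 1.997 for all genes. Per megabase of end windows they were 7.77 ± 6.34 and 22.9 ± 12.4. The median span was 42.6 kb for members and 17.2 kb for all genes. Among genes under 50 kb, members held 1.76 peaks per megabase of interior span and all genes 1.65. From 50 to 200 kb the interior values were 1.99 and 2.70, and over 200 kb 3.62 and 4.29. Flank densities in the same order of length were 3.10 and 2.88, 2.43 and 3.32, and 4.64 and 3.40. These are descriptions without a test.

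**Figure D1:**
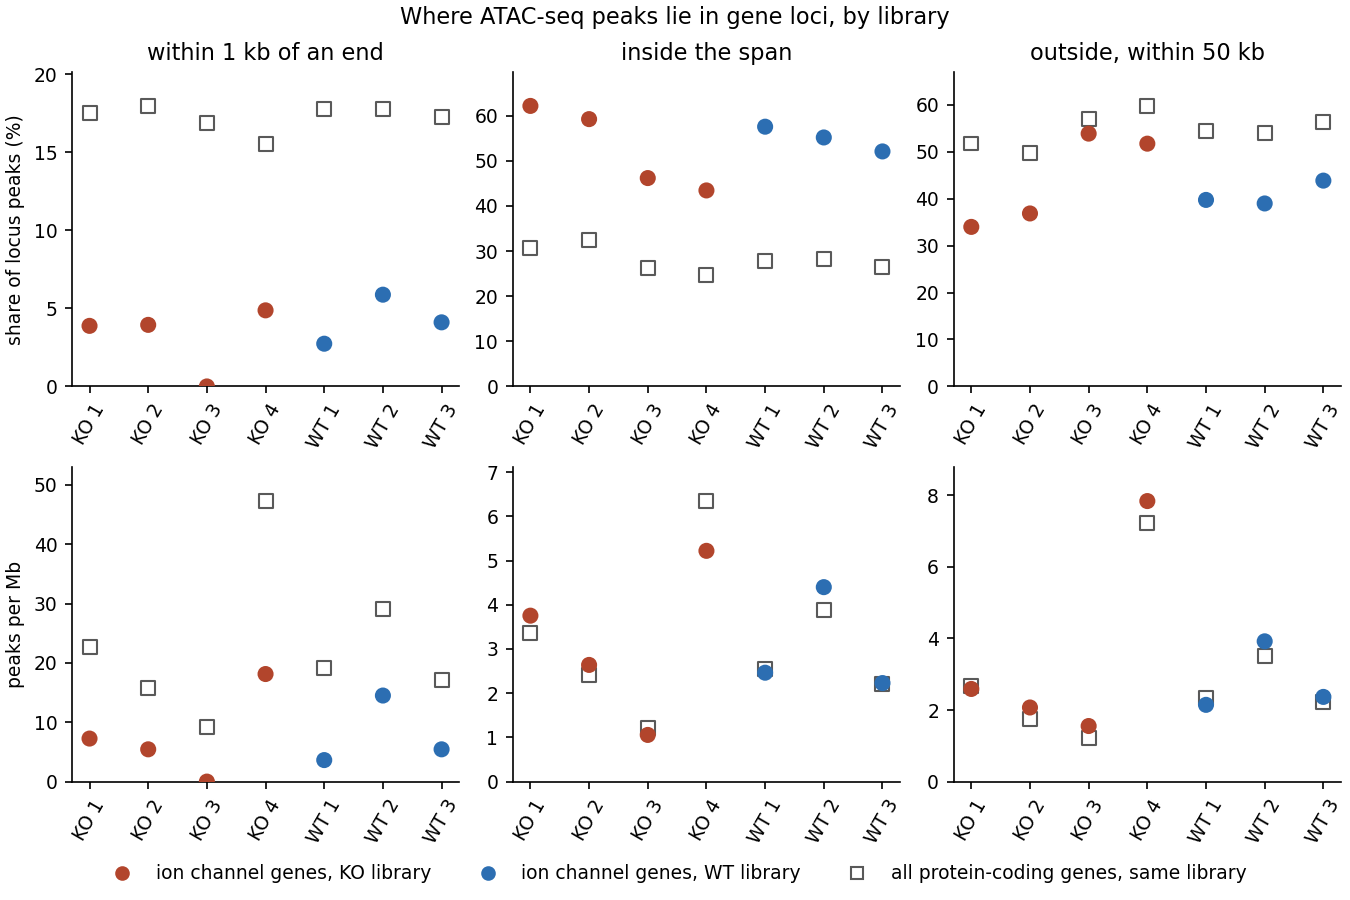
Peaks of the 138 ion channel loci (filled circles, KO red and WT blue) and of all protein-coding loci (open squares) in each library, as shares of locus peaks (top, percent) and as peaks per megabase (bottom), for gene ends, span interiors and flanks. Members lie below all genes at the ends in every library, at 0 to 5.88% of locus peaks. Their densities inside and outside the span, pooled over gene lengths, lie close to those of all genes.

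In each of 3 length classes, a smaller share of members than of all genes was called at an end. Among genes under 50 kb, 6 of 72 members (8.33%) had an end peak in at least 1 library, against 21.9% of all genes of that length. From 50 to 200 kb the count was 5 of 39 (12.8%), against 29.1%. Over 200 kb it was 6 of 27 (22.2%), against 31.1%. Glutamate and GABA receptor genes, the other large family of neuronal membrane channels and receptors, had 7 of 47 genes called at an end (14.9%) and 4.47 peaks per megabase inside their spans. Channel partners outside the symbol rule, such as the ankyrins, the fibroblast growth factor homologous factors and the Clcn chloride transporters, had 12 of 36 called (33.3%). Among them were Clcn3, Clcn5, Clcn6, Fgf11, Fgf12 and Fgf14.

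The calcium- and sodium-activated potassium channels held the largest share of end calls, with 4 of 8 genes called, and the calcium pore subunits held none. Subfamily counts are small and were not tested. Kcnt2 had an end peak in 2 of 4 KO libraries, with fold enrichments of 6.02 and 4.34, and in 2 of 3 WT libraries, with 4.41 and 5.29. Fold enrichment is the authors' ratio of signal over the peak caller's background, a value of each list. Kcnn2, a small-conductance calcium-activated channel gene, was called in 3 of 4 KO libraries at 4.42, 4.68 and 3.54 and in 1 of 3 WT libraries at 5.82. Its peaks lay 247 bp outside the lower end of the span. Neither gene separated the genotypes, and both had calls in each. Kcnn3 of the same family was called in KO library 4 (4.76) and WT library 3 (4.21), and Kcnn1 in KO library 4 alone (4.78).

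Of the 40 voltage-gated potassium pore genes, 3 were called at an end. Kcna4, which encodes a rapidly inactivating channel of the Shaker family, was called in KO library 2 (4.26) and WT library 3 (3.51). Kcnb2, a delayed rectifier gene, was called in KO library 2 (4.29) and Kcnf1, an electrically silent modulatory subunit gene, in WT library 2 (4.90). Potassium accessory genes had 5 of 16 called. Kcne4 was called in KO libraries 1 and 4 (5.15 and 3.52) and WT library 1 (4.17), in each case at the end opposite its annotated start. Kcnip3, which encodes a calcium-binding protein that also acts as a transcriptional repressor, was called in KO library 4 (4.33) and WT library 2 (4.53). Kcne1l on chromosome X, a gene of 1446 bp, was called in 0 of 4 KO and 2 of 3 WT libraries (3.92 and 3.81), and the sex of the embryos is not given. Kcnip1 (3.63) and Kcnab2 (4.67) were each called in KO library 4 alone, and the Kcnab2 peak also lay at an end of the neighbouring gene Nphp4.

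In the other families described here, calls were single genes. Kcnj2, an inward rectifier gene whose product helps set the resting potential, was 1 of 15 inward rectifiers called, in KO library 4 (4.72) and WT library 2 (4.44). Kcnk12 was 1 of 14 tandem-pore potassium channel genes called, in KO library 4 (4.25). Scn1a was 1 of 10 sodium pore genes (WT library 2, 4.70) and Cacnb2 1 of 16 calcium accessory genes (WT library 2, 4.24). No end peak was found for the 10 calcium pore genes, the 4 sodium accessory genes or Kcnrg in any library.

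Fold enrichment of the 30 end peaks ran from 3.51 to 6.02. The percentile of −log10 q within a list ran from 6.09 at Kcna4 to 85.4 at Kcnt2, with a median of 37.7, and the most significant peak, at Kcnt2 in KO library 1, had a −log10 q of 4.82. Of the 17 called members, 9 were called in 1 library, 5 in 2, 1 in 3 and 2 in 4. Calls came in 14 of the 17 from KO library 4 or WT library 2, the longest lists. Where the promoter table gives the strand, the called end was the start in 11 genes, the other end in Kcne4 and Kcnk12, and both in Kcne1l, whose span is shorter than the windows. For the other 3 genes, Kcnb2 and Kcnn2 among them, the orientation was not used here. The called region farthest from an end was that of Scn1a at 426 bp. Just outside the 1 kb limit lay regions at Kcnv1 (1052 bp inside, 2 of 4 KO and 2 of 3 WT libraries), Kcnh6 (1074 bp, 4 of 4 and 1 of 3, at an end of Dcaf7) and Kcnd2 (1286 bp, 1 of 4 and 1 of 3).

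**Figure D2:**
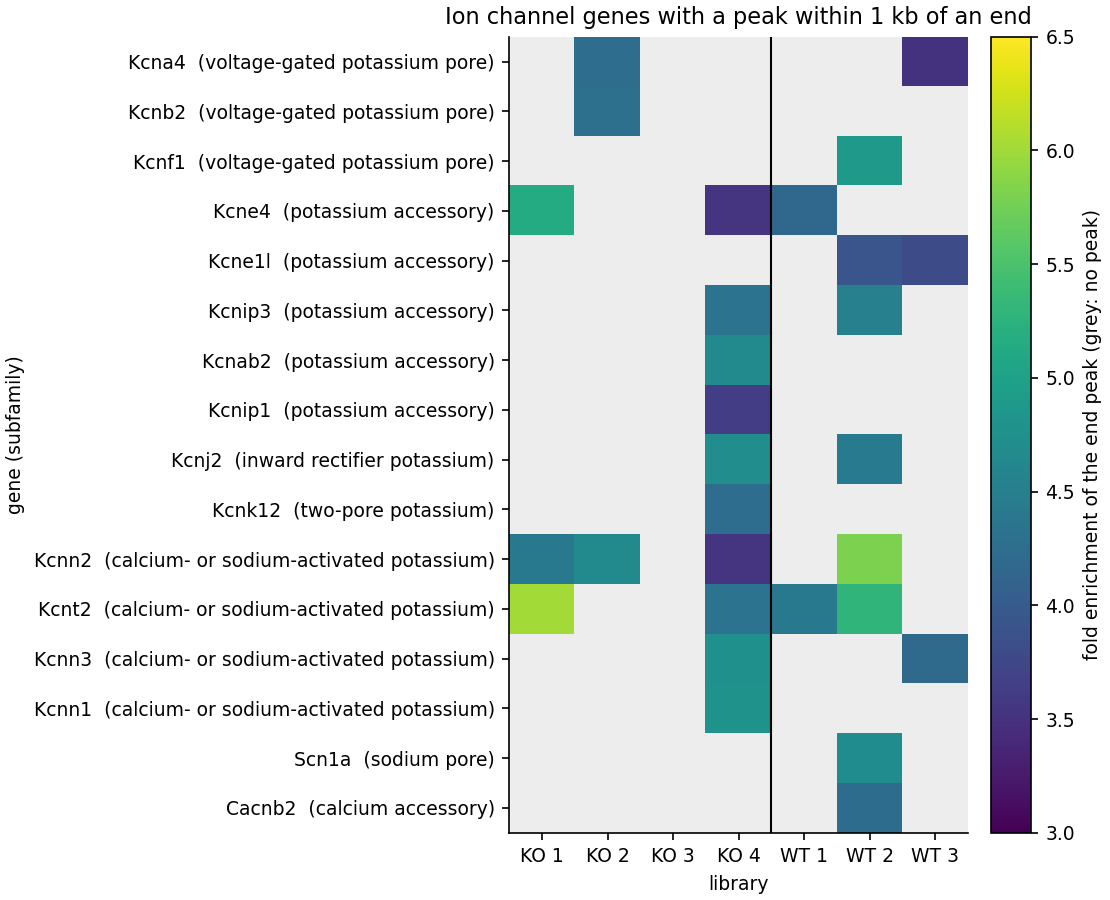
Fold enrichment of the end peak in each library (columns, KO left of the line and WT right of it) for the ion channel genes described above as called at an end (rows, with subfamily); grey cells have no peak. Most rows hold 1 or 2 calls, KO library 3 has none, and Kcnt2 and Kcnn2 have the most with 4 each.

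The internal start of Scn2a was called in every library. Its merged region (chromosome 2, 65668454 to 65668682, 229 bp) ended 4 bp before the annotated start at 65668686, which lies 47.9 kb from the lower end of the span. Fold enrichment was 6.43, 6.38, 4.15 and 6.17 in the KO libraries and 6.65, 6.61 and 5.93 in the WT libraries. The KO and WT ranges overlapped, and KO library 3, the shortest list, was lowest. All 7 peaks shared 126 bp. No library had a peak at either end of the Scn2a span, and this site is therefore not among the end calls. Over all promoter windows, 12 of 137 member windows had a peak in at least 1 library (8.76%), against 19.7% of all 21262 windows. Of 4050 internal windows of protein-coding genes, 547 (13.5%) had a peak in at least 1 library and 18 (0.444%) in all 7. Among members, 4 of 49 internal windows had a peak (8.16%), in Scn2a, Cacnb2, Cacnb4 and Kcnab1. Of 88 outer member windows 8 had a peak (9.09%), against 21.2% of all outer windows. In all 7 libraries, 1 of the 49 internal and 0 of the 88 outer member windows had one, against 0.444% and 1.02% of all. The internal Cacnb2 start was called in KO library 1 (5.16) and WT library 3 (4.45), that of Cacnb4 in KO library 4 alone (3.40) and that of Kcnab1 in WT library 1 alone (4.42).

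The promoter letters were searched on both strands for the E-box core CANNTG, whose forms CAGCTG and also CAGATG were counted within it. Further searches were for the GC box GGGCGG, the CCAAT box, the cAMP response element TGACGTCA and the sequence TTCAGCACC, the left part of the element bound by the repressor REST. The Scn2a internal window holds none of these letters. The E-box core was found in 98 of 137 member windows (71.5%) and in 69.0% of all 21262 windows, and CAGCTG in 27.0% and 15.6%. Of the 12 member windows with a peak, 6 held CAGCTG (all windows with a peak 13.3%), among them those of Kcnip3, Kcnj2 and the internal Cacnb2 start. GGGCGG was found in 46.0% of member windows and 46.2% of all, CCAAT in 28.5% and 38.2%, TGACGTCA in 0% and 2.23%, and TTCAGCACC in 0.730% and 0.414%. The ratio of observed to expected CpG had a median of 0.435 in member windows and 0.567 in all windows. In windows with a peak it was 0.446 for members and 0.791 for all. GC content had a median of 48.7% in the 4 internal member windows with a peak and 62.7% in the 8 outer ones. These shares describe the letters in 300 bases and were not tested.

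Across whole loci, the members with the most peaks were long genes. At least 1 library had a peak in 111 of the 138 loci (80.4%, against 69.2% of all protein-coding genes), and all 7 had one in 13 (9.42%, all genes 6.9%). Under 50 kb, all 7 libraries had a peak in 1.39% of member loci and 4.30% of all loci. From 50 to 200 kb these shares were 5.13% and 10.6%, and over 200 kb 37.0% and 36.6%. For at least 1 library, in the same order of length, they were 72.2% and 64.6%, 87.2% and 82.5%, and 92.6% and 96.3%. The 5 richest loci, Kcnip4, Kcnq5, Kcnd2, Kcnh7 and Cacna2d1, held 26.8% of the 705 peaks counted over members and libraries, and 27 loci held none in any library. A like share for the richest loci of all genes was not computed. Kcnip4, which encodes a calcium-binding partner of the A-type channels, spans 1136 kb and held 13, 10, 4 and 10 peaks in KO libraries and 4, 14 and 8 in WT libraries. Kcnd2, which encodes an A-type pore subunit, held 7, 5, 2 and 6 in KO and 4, 6 and 4 in WT libraries. Kcnq5, which encodes a subunit of the M-current, held 6, 5, 1 and 6 in KO and 4, 11 and 3 in WT libraries. Kcnh7, of the ether-a-go-go related family, held 3, 5, 3 and 4 in KO and 4, 7 and 3 in WT libraries. Cacna2d1, the auxiliary calcium channel subunit bound by gabapentin, held 3, 4, 2 and 7 in KO and 3, 5 and 3 in WT libraries. In each of the 5 loci the KO and WT ranges overlapped.

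Loci of like length held different numbers of peaks. Kcnma1, the large-conductance calcium-activated channel gene, spans 713 kb and averaged 0.143 peaks per library, and Cacna1c, an L-type calcium channel gene of 610 kb, averaged 0.286. Kcnq5, at 564 kb, averaged 5.14. Kcnma1 and Cacna1c were chosen after their values were seen. Among genes over 200 kb, members averaged 2.11 peaks per locus and all genes 2.28, with medians of 1.57 and 1.71. From 50 to 200 kb the averages were 0.465 and 0.691, with medians of 0.286 and 0.429. Under 50 kb they were 0.355 and 0.385, with medians of 0.286 and 0.143. By subfamily, voltage-gated potassium pore genes held 5.18 peaks per megabase inside their spans. Calcium accessory genes held 3.35, potassium accessory genes 3.24, tandem-pore genes 2.51, sodium pore genes 2.31, inward rectifiers 1.56, calcium- and sodium-activated channels 1.49, calcium pore genes 1.41, pacemaker channels 0.322 and sodium accessory genes 0. These densities pool genes of unlike length. Among voltage-gated potassium pore genes, Kcnq5 averaged 5.0 interior peaks per library, Kcnd2 4.57 and Kcnh7 3.14. The median locus of that subfamily held 0.429 peaks in any position. Pacemaker loci held 10 peaks over all libraries and positions.

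**Figure D3:**
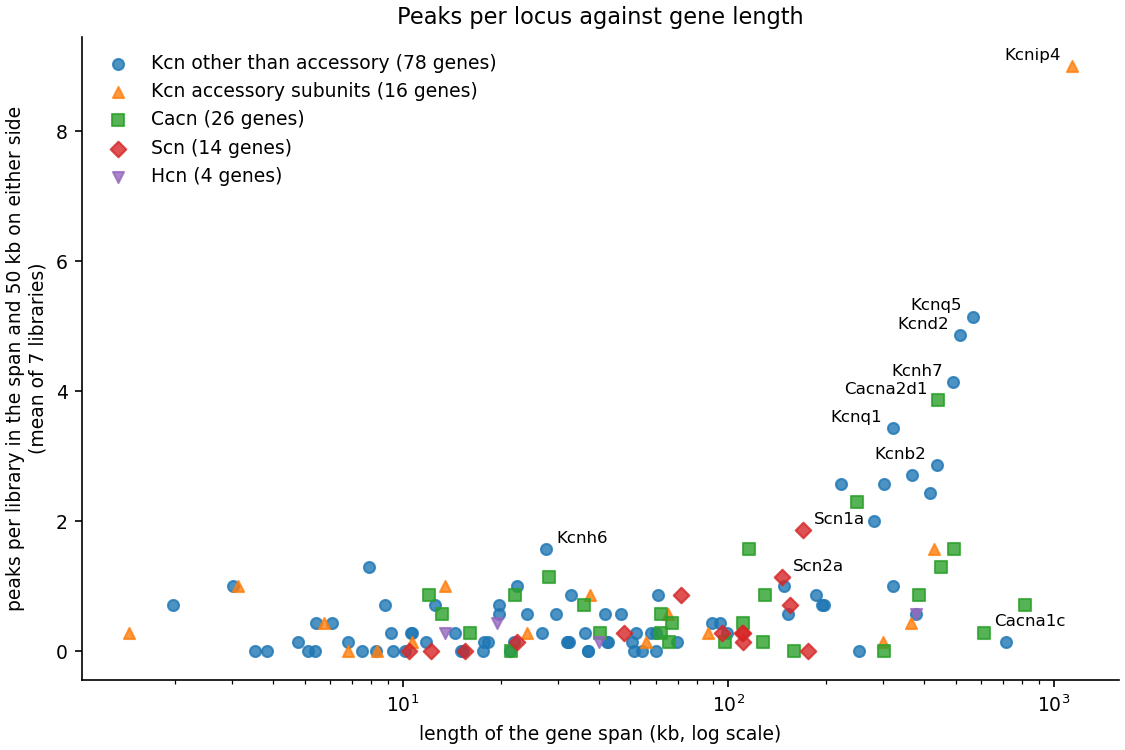
Mean number of peaks per library in the span and 50 kb on either side (vertical axis) against span length in kilobases (horizontal axis, log scale) for the 138 ion channel genes, by family. Loci with more than 3 peaks per library are all longer than 300 kb, and Cacna1c is long with few peaks, at 0.286 per library.

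The peaks of all libraries were merged where they overlapped by at least 1 bp, which gave 25623 regions, of which 290 lay in ion channel loci. Of these, 10 were called in all 7 libraries (3.45%, all regions 5.06%) and 153 in 1 library only (52.8%, all regions 48.4%). Inside the spans, 7 of 148 regions (4.73%, all regions inside spans 4.85%) were called in all 7, at Kcnd2, Kcnip4, Kcnh7, Kcnq3 and Scn2a. In the flanks 3 of 134 (2.24%) were, against 5.06% of all regions in any position, since no share was computed for flanks alone. These 3 each lay at an end of another gene, Ttc21b beside Scn1a, Pacrgl beside Kcnip4 and Ssr3 beside Kcnab1. Of the 134 flank regions, 45 lay at an end of a gene that is not a member. Of all regions in any position, 18.0% lay at a gene end, and the share for flanks alone was not computed. At member ends 0 of 17 regions were called in all 7, where 4.57% of all regions at gene ends were. Regions inside the spans lay a median of 83.5 kb from the nearest end, and 1 of the 148 lay at an end of another gene. Neither value was computed over all genes. Of the 116 inside regions of genes with known starts, 5 lay within 1 kb of an internal start, a count not made over all genes. Along the gene from start to end, 4 equal parts of the span held 28, 31, 26 and 31 of these regions, against 24.3%, 25.4%, 25.4% and 24.9% for all genes.

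Among the 10 regions called in all 7 libraries, the one with the highest mean percentile of −log10 q lay inside Kcnd2, 110 kb from the start (chromosome 6, 21325382 to 21325656). Fold enrichment was 7.02, 8.07, 4.63 and 7.77 in KO and 6.24, 6.23 and 6.69 in WT libraries. A further Kcnd2 region (21693006 to 21693282), 36.5 kb from the other end, stood at 4.93, 4.92, 5.80 and 5.06 in KO and 4.51, 5.99 and 5.71 in WT libraries. The genotypes overlapped at both sites, and the first stood above the second in 6 of the 7 libraries. The Kcnh7 region (chromosome 2, 62807495 to 62807940), 114 kb from an end, stood at 5.88, 5.88, 4.64 and 6.52 in KO and 5.69, 5.34 and 5.25 in WT libraries. Here the peaks of all 7 libraries shared 279 bp.

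Kcnq3, whose product forms the M-current with its Kcnq partners, had a region 46.7 kb from an end (chromosome 15, 66239167 to 66239916). It stood at 4.83, 4.65, 4.50 and 5.70 in KO and 7.04, 4.81 and 5.58 in WT libraries, and the 7 peaks shared 42 bp of its 750 bp. Inside Kcnip4, regions on chromosome 5 at 49090221 to 49090396 and at 48864293 to 48864820 were called in all 7, with folds of 4.14 to 6.93 and 4.44 to 6.20. They lay 434726 and 474790 bp from the nearest end. The 3 flank regions had folds of 4.77 to 6.07 near Scn1a, 3.61 to 8.29 near Kcnip4 and 5.03 to 5.44 in KO and 4.29 to 6.46 in WT libraries near Kcnab1. A group of 17 regions (5.86%, all regions 5.96%) was called in 6 of 7 libraries. Of these, 12 were missing in KO library 3 alone, the shortest list, as were 969 of 1528 such regions over the genome. They included sites inside Kcnq5, Cacna2d1, Kcnh5 and Kcnk10.

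**Figure D4:**
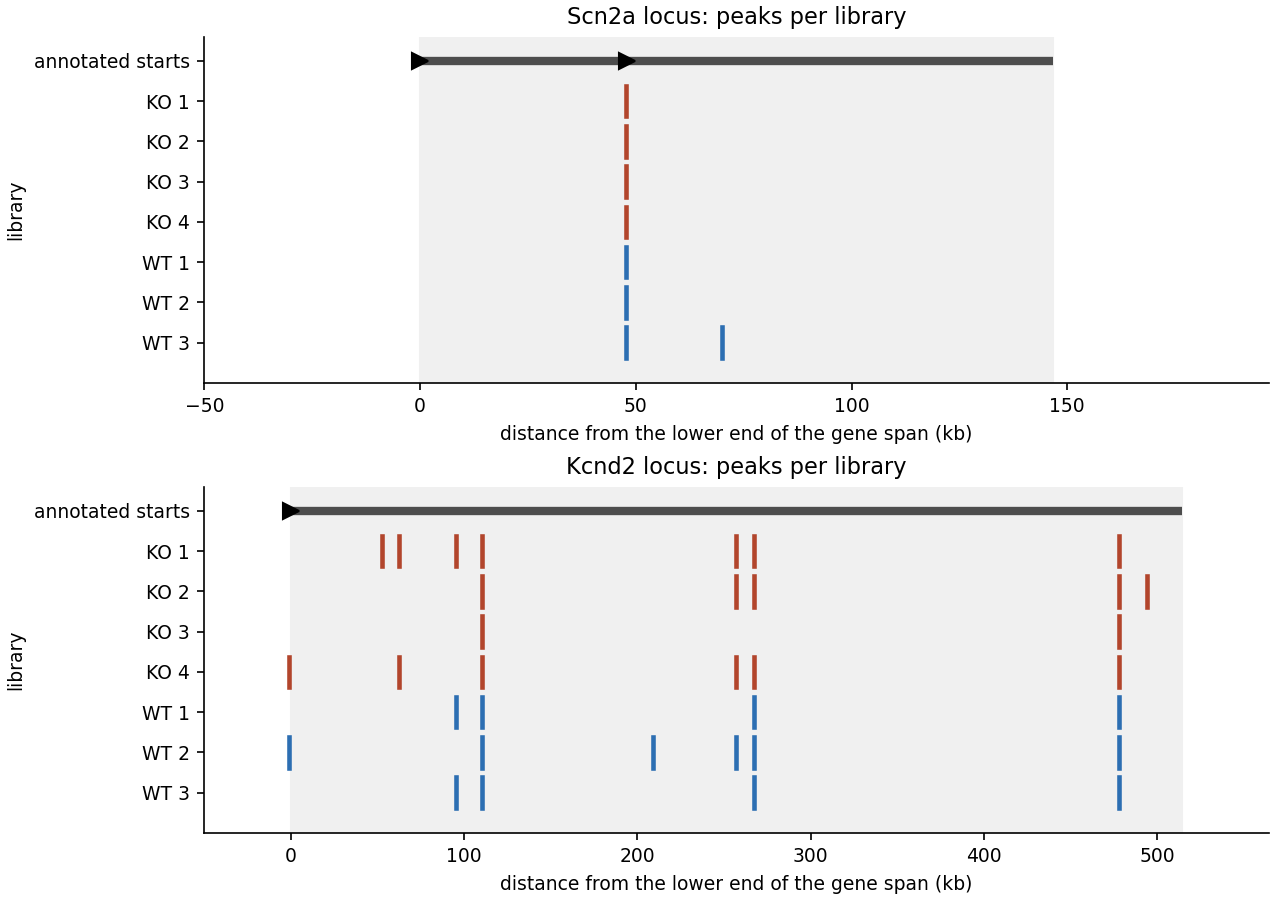
Peaks of each library (rows, KO red above WT blue) along the Scn2a and Kcnd2 loci, in kilobases from the lower end of the gene span; the grey band is the span and triangles mark annotated starts in the promoter table. At Scn2a all 7 libraries have a peak beside the internal start 47.9 kb into the span, and at Kcnd2 peaks recur at 110 kb.

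Between the genotypes, no ion channel gene or region passed the adjusted tests. Called at an end in 4 of 4 KO and 0 of 3 WT libraries were 0 members, where 0.0274% of all genes were, and in 0 of 4 and 3 of 3 also 0, where 0.0183% were. By Fisher's exact test on calls per gene, two-sided, with Benjamini-Hochberg adjustment over all genes, 0 members passed at 0.05 (all genes 0) and 0 had an unadjusted p under 0.05 (all genes 0.0457%). The exact permutation test of peak number per locus passed 0 members after adjustment, and 0 had an unadjusted p under 0.05 (all genes 0.228%). With 4 against 3 libraries the smallest p of either test is 0.0286, so that the adjustment over all genes could hardly be passed. KO libraries held 0.766 ± 0.516 peaks per member locus (SD, n = 4) and WT libraries 0.681 ± 0.264 (SD, n = 3), a difference of 0.085 within the spread. More peaks per library were found in KO at 68 loci (49.3%, all genes 40.6%) and in WT at 40 (29.0%, all genes 26.2%). Without KO library 4 these counts were 22 and 52, for which the shares over all genes were not computed. The difference in peaks per locus was then −0.155 for members and −0.127 for all genes. With all libraries it was 0.085 for members and 0.080 for all genes. The direction thus rested on that library for members and for all genes alike.

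A region inside Cacna1e, which encodes the pore of the R-type calcium channel, was called in 4 of 4 KO and 0 of 3 WT libraries (chromosome 1, 154500533 to 154500782). It lay 110 kb from the nearest end, and its peaks had folds of 4.43, 6.30, 3.71 and 3.83 in KO libraries and shared 71 bp. Its Fisher exact p was 0.0286 and its adjusted p over all regions 1. It was the only member region of 290 with an unadjusted p under 0.05 (all regions 0.242%), and 0 passed after adjustment (all regions 0). Over all regions, 0.109% had this pattern and 0.133% the opposite one, which 0 of the 290 member regions showed. The whole Cacna1e locus held 2, 1, 2 and 5 peaks in KO and 0, 1 and 0 in WT libraries (exact permutation p = 0.0857, adjusted p = 1), so the ranges touched at 1. Nearest to the opposite pattern were regions inside Cacng4 (chromosome 11, 107763119 to 107763362, also within 50 kb of Cacng1) and near Kcnd3 at an end of Inka2 (chromosome 3, 105704562 to 105704737). Each was called in 1 of 4 KO libraries, library 4, and 3 of 3 WT libraries (Fisher exact p = 0.143, adjusted p = 1). A region 47.2 kb beyond Kcnn2 was called in 3 of 4 KO (6.86, 5.24 and 4.44) and 0 of 3 WT libraries (Fisher exact p = 0.143, adjusted p = 1).

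**Figure D5:**
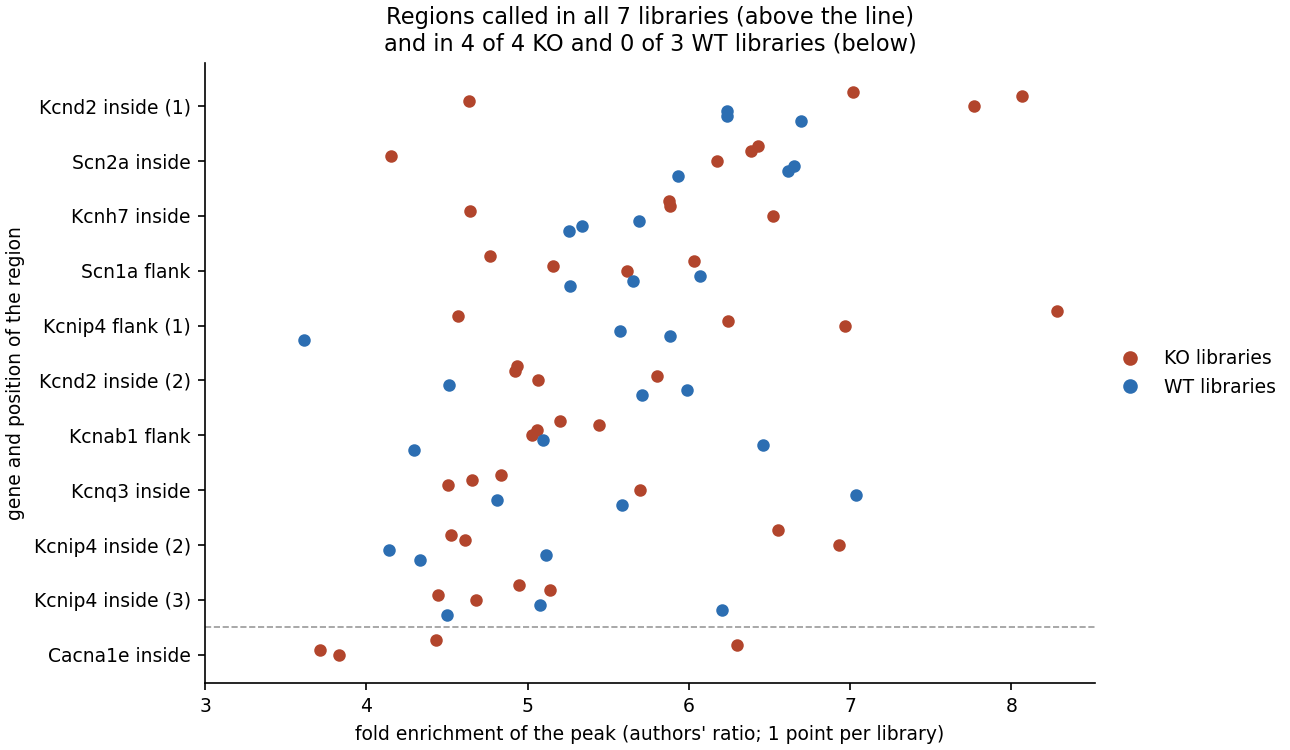
Fold enrichment per library (points, KO red and WT blue) of the 10 ion channel regions called in all 7 libraries, ordered by mean percentile of significance, and of the Cacna1e region called in 4 of 4 KO and 0 of 3 WT libraries. The KO and WT points overlap in the regions called in all 7, and the Cacna1e peaks lie between 3.71 and 6.30.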

How the data were processed

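Per the labels' protocols, tagmentation used Nextera reagents. Reads were handled with Bowtie2 2.3.5.1 (GRCm38), MACS2, SAMtools 1.9, FastQC 0.11.8, deepTools 3.3.0 and CASAVA 1.9, as the submitters' processing notes list them. Settings and any read shift were not given in the sources used here. For each library the authors deposited 1 broad peak list, with a fold enrichment (a ratio), a −log10 p and a −log10 q per peak. The deposited whole-number score was not used. The smallest −log10 q was 1.30 to 1.32. No counting interval could be set.

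Gene spans came from RefSeq GRCm38.p6 (21883 protein-coding genes) and starts from its promoter table. Peaks were merged into regions, and calls were compared by Fisher's exact test and peak numbers by an exact permutation test over 35 splits, with Python 3.11.15 and scipy 1.17.1, tested on simulated data. The members and lists were chosen with earlier results of these data known. The rule for names took members called at an end (up to 2 per subfamily), the 5 richest loci, up to 10 regions in all 7 libraries and regions separating the genotypes. The remaining end calls, near misses, flank regions and long loci with few peaks were named after their values were seen. The values of 1 called member are not reported here, and it stays in the counts. Alternatives were the window, flank, merging, coverage, significance, list length, replicate block and single libraries. Coordinates are counted from 1.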

Additional observations from a re-analysis of the deposited data

Results flagged for a closer look

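KO library 4 stood apart from the other 3 KO libraries in the flanks of ion channel genes, with 7.84 peaks per megabase against 2.59, 2.07 and 1.55 in KO libraries 1 to 3 and 2.14, 3.92 and 2.37 in the WT libraries. The gap to the nearest KO library was larger than Dixon's 95% limit for 4 values, a limit that chance exceeds in about 1 of 20 groups. Over all protein-coding genes the same library held 7.22 peaks per megabase of flank, and its list is the longest. The part of the list length in this value was not tested.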

How the results depend on the processing

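Under the other settings tried, 75 values stayed within a set margin of the reported ones and 18 moved beyond it. These counts leave out the added setting named below. The margin was the SD between libraries for genotype differences and the end share, and a fixed ratio for counts. A difference could change sign within it, as that in peaks per locus did (0.085 as reported, −0.155 with the replicate block). In every setting run, the genotype differences in end calls and in peaks per locus were smaller than the SD between libraries under the reported setting. The spread under each other setting was not computed, so with shorter lists this comparison decides little. Members with an end peak numbered 4 with equal lists and 0 with the −log10 q minimum raised to 5, settings that keep fewer peaks by construction. With annotated starts added, an alternative chosen after seeing the data, they numbered 21, and 1 (Scn2a) was called in all 7 libraries. The share of member locus peaks at an end was 6.41% with a window of 2.5 kb, 5.64% with a flank of 10 kb and 0% with that minimum. Regions called in all 7 libraries numbered 3 with equal lists (in Kcnh7, Scn2a and Kcnd2), 4 where peaks had to cover 50% of the region and 0 with that minimum. The Cacna1e region was the 1 region called in every library of 1 genotype and none of the other as reported. Such regions numbered 0 with equal lists, 0 with 50% covered and 0 with the raised minimum. With the replicate block, which compares same-numbered libraries 1 to 3, they numbered 3, the difference in end calls was −1.45 percentage points and that in peaks per locus −0.155. The block leaves out KO library 4, and its values equal those without that library, so it is no separate check. Both settings are in the counts of values above. The deviations of same-numbered KO and WT libraries correlated at 0.0012, 0.071 and 0.076, so the numbers were not taken as pairs.

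Leaving out single libraries moved the difference in end calls between −1.45 and 1.27 points and that in peaks per locus between −0.155 and 0.246. Members with an end peak ranged from 13 to 17, members called at an end in all libraries stayed at 0, and the share of peaks at an end ran from 3.26% to 4.24%. Regions in all libraries ranged from 10 to 22, the highest without KO library 3. Regions separating the genotypes ranged from 1 to 4, with 2 without KO library 3, 3 without KO library 4, 4 without WT library 1 and 3 without WT library 2. Members separating them at an end ranged from 0 to 1, with Kcne1l so called without WT library 1. The cause was not tested. With 1 library fewer, calling in all libraries and separation of the genotypes are met more easily by any region or gene. For these counts, shares over all regions and all genes were not computed, here or under the other settings. The unknown depth of the lists limits every absent call.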
